A study of Mus musculus with 12 samples.

Results

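Ccl3, Ccl5, Ccl9, Ccl20, and Ccl25 are CC chemokine genes that were followed through 4 culture conditions of a mouse fibroblast line. They were chosen by symbol, as the CC chemokines outside the Ccl2, Ccl7, Ccl8, Ccl11, and Ccl17 group that the study emphasizes. They are 5 of 26 genes with a CC chemokine symbol and of 56941 genes in the count table, and all 5 passed the filter on low counts. The cells were wild-type 3T3-L1, an embryonic fibroblast line that can be differentiated into adipocytes, and RNA was sequenced from 3 libraries per condition after 24 hours. Control cells received vehicle, IL-4/13 cells received 50 ng/mL each of IL-4 and IL-13, Inf cells received IL-1β (0.5 ng/mL) with TNF-α (20 ng/mL) and IL-17A (50 ng/mL), and cells of the combined condition, IL-4/13 + Inf, received all 5 cytokines. The labels give all 12 libraries the same batch. The comparisons ask whether type 2 cytokines alone, or added to an inflammatory mixture, change the chemokine transcripts of fibroblasts. The labels do not say that the 3 libraries of a condition came from separate cultures, so p-values measure the spread between these libraries, which may be technical.

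CC chemokines are small secreted proteins that bind G protein–coupled receptors on leukocytes and direct their migration. Receptors of Ccl3 (MIP-1α) include CCR1, those of Ccl5 (RANTES) include CCR1 and CCR3, and Ccl9 (MIP-1γ) binds CCR1. Ccl20 is the chemokine ligand of CCR6 and Ccl25 that of CCR9, a receptor of thymocytes and of lymphocytes that home to the small intestine. In fibroblasts and epithelial cells, TNF, IL-1, and IL-17 are known to raise chemokine transcripts through NF-κB and through control of mRNA decay.

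Ccl5 was the most abundant of the 5 transcripts per length in every condition. Inf raised Ccl3, Ccl5, Ccl9, and Ccl20. IL-4/13 raised Ccl5 and Ccl9 when given alone. When IL-4/13 was added to Inf, Ccl9 rose further, whereas Ccl3 and Ccl20 fell. Ccl25 was not called in any comparison. Calls required an adjusted p under 0.05 together with a change of more than 0.25 on the log2 scale (edgeR quasi-likelihood test, Benjamini-Hochberg adjustment over 14810 tested genes). Levels are CPM, counts scaled to the effective library size of the tested genes after TMM scaling.

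Of the 5 genes, 2 were called up by IL-4/13 alone, where 2.78% of all tested genes were called up. Inf raised 4, against 16.3% of tested genes, and IL-4/13 + Inf raised the same 4 over control, against 13.4%. These comparisons share the control libraries. When IL-4/13 was added to Inf, 1 was called up, against 7.55%, and 2 were called down, against 7.00%. When Inf was added to IL-4/13, 3 were called up, against 13.3%. Ccl3 and Ccl20 had at most 3 counts per library without Inf and passed the filter only through the libraries with Inf. Their calls up with Inf thus come from the same libraries that admitted them to the test. With only the control and IL-4/13 libraries filtered, 3 of the 5 genes were tested. In the interaction, which subtracts the IL-4/13 response without Inf from that with Inf, 1 was called down, against 1.59%. With 5 genes chosen by name, these counts describe the genes and not CC chemokines at large.

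**Figure D1:**
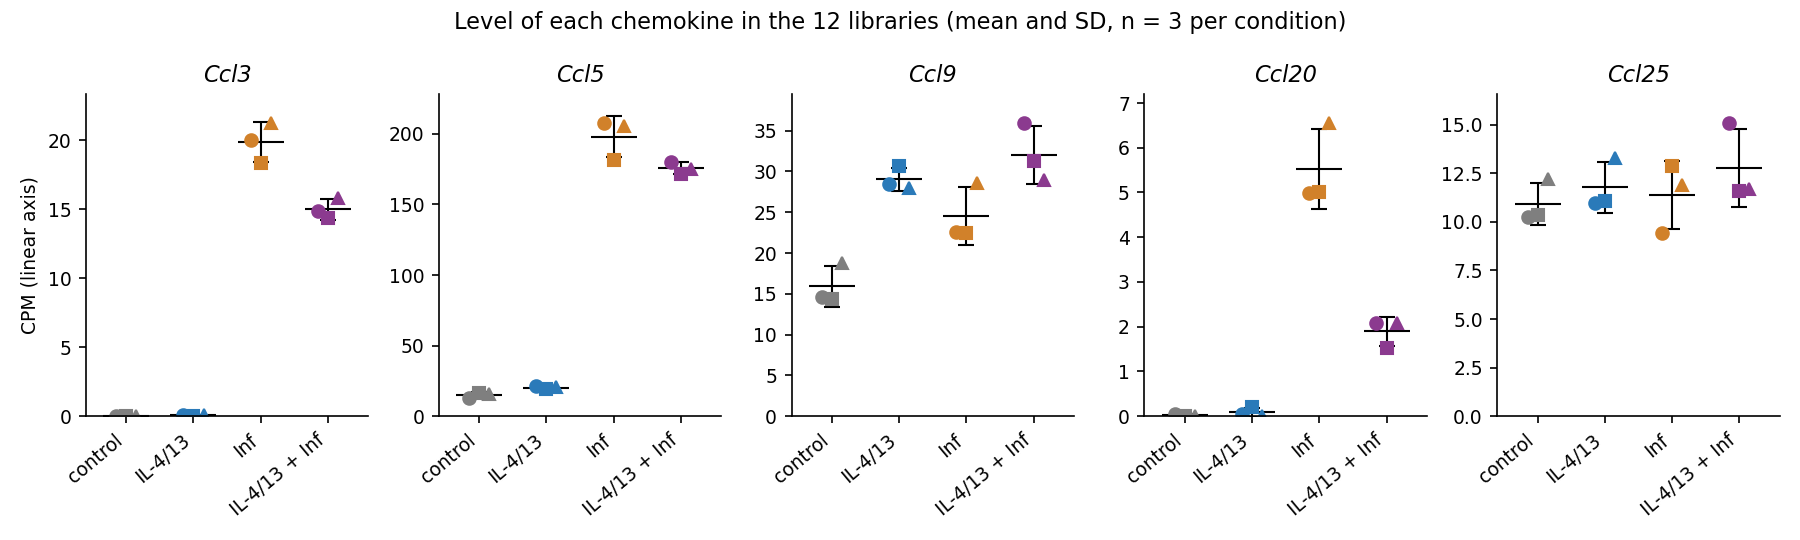
CPM (linear axis from 0, a separate scale for each gene) of Ccl3, Ccl5, Ccl9, Ccl20, and Ccl25 in the 4 conditions, with circles, squares, and triangles for replicates 1, 2, and 3 and black bars for the mean and SD (n = 3). Ccl3 and Ccl20 lie near 0 without Inf, Ccl5 is far higher with Inf than without, Ccl9 is lowest in control, and the Ccl25 points of all conditions overlap.

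Total counts were 13446005 to 20775769 per library. All 10 fibroblast markers listed, such as Col1a1 and Pdgfra, were tested, and their summed level ranged from 16666 to 19435 CPM in control libraries and from 11769 to 12140 CPM with both mixtures. The markers in this sum did not all fall. Mean Col1a1 was 3893 CPM in control, 2493 CPM in Inf, and 2081 CPM with both. In the same order, mean Dcn was 103, 1756, and 1440 CPM, and mean Pdgfra was 196, 385, and 225 CPM. Among 6 adipocyte markers, Fabp4 alone exceeded 3 counts in any library, with a mean of 11.3 CPM in control and 30.1 CPM in Inf. Summed macrophage markers moved with Inf, from 21.2 to 24.5 CPM in control to 50.1 to 63.3 CPM in Inf, and Cd14 held most of this, at 14.9 and 44.7 CPM. Of the 12 macrophage markers, 6 were tested. Mean Mrc1 was 0.18 CPM in control, 2.11 CPM with Inf, and 3.03 CPM with both, and mean Aif1 was 0.74, 2.20, and 1.12 CPM. Csf1r had 27 to 75 counts per library, Lyz2 had 21 to 56, and Cd68 had 10 to 32. Of the 6 not tested, Adgre1, Itgam, and Cx3cr1 had at most 1 count in any library, Fcgr3 at most 2, Fcer1g at most 4, and Tyrobp had 0. The leukocyte gene Ptprc had at most 5. The part of such cells in the chemokine results was not tested. Summed T cell markers stayed between 1.70 and 3.42 CPM in the 12 libraries. Lck and Trac were tested and held most of this, with means of 1.95 and 0.56 CPM in control and 1.69 and 0.69 CPM in Inf. Cd4 had at most 2 counts in any library, and Cd3d, Cd3e, Cd3g, Cd8a, and Cd2 had 0. Summed epithelial markers stayed between 0.049 and 1.25 CPM, and endothelial markers between 0.34 and 1.58 CPM. Neutrophil markers summed to at most 0.062 CPM without Inf, 2.55 to 3.52 CPM with Inf, and 0.84 to 1.35 CPM with both mixtures. Camp held nearly all of this, with a mean of 2.99 CPM with Inf and 1.09 CPM with both. Ly6g, Cxcr2, and Elane had at most 1 count in any library, and Mpo and Ngp had 0. In bulk RNA, a change in the share of cells that express a gene and a change in RNA per cell cannot be told apart.

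Ccl3, Ccl5, and Ccl9 lie together on chromosome 11, in the cluster that also holds Ccl4 and Ccl6. In GENCODE M21 (GRCm38, an earlier build than the GRCm39 that the submitters' notes name), Ccl3 is at chr11:83647844-83649355, Ccl5 at chr11:83525778-83530518, and Ccl9 at chr11:83572919-83578636, all on the minus strand. Ccl4 starts 13228 bases from Ccl3 and had at most 2 counts in any library. Ccl6 is 9245 bases from Ccl9 and had at most 5 counts. Ccl20 is at chr1:83116766-83119167 and Ccl25 at chr8:4325210-4360020, both on the plus strand.

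Ccl3 had 0 counts in all 3 control libraries, and 2, 0, and 1 in the IL-4/13 libraries. It had 301, 376, and 350 counts in the Inf libraries and 299, 255, and 234 in the IL-4/13 + Inf libraries. Scaled to depth, these were 20.004, 18.312, and 21.219 CPM with Inf and 14.8, 14.3, and 15.8 CPM with IL-4/13 + Inf. All libraries that received Inf were thus above every library without it, and all 3 libraries with both mixtures were below all 3 with Inf alone. Of all tested genes, 23.5% lay wholly higher with Inf than in control, and 16.8% wholly lower with both mixtures than with Inf. No such share is given for both mixtures against control or IL-4/13.

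Because control lay at 0, the rise of Ccl3 is given as a bound against 3 counts per library. Ccl3 was at least 111-fold higher in Inf than in control and at least 83.6-fold higher in IL-4/13 + Inf (adjusted p = 2.0e-20 and 1.9e-19, edgeR). Against IL-4/13 alone, it was at least 78.1-fold higher with both (adjusted p = 6.9e-19). Ccl3 passed the filter only through the libraries with Inf, so these p-values against groups without Inf are not independent support for a rise. Mean CPM fell from 19.8 ± 1.46 with Inf to 14.98 ± 0.74 with IL-4/13 + Inf (SD, n = 3). That fall was −0.40 ± 0.11 on the log2 scale (SE, adjusted p = 0.0083, edgeR), and it was called without any single library as well, at −0.46 to −0.35. Whether IL-4/13 alone changed Ccl3 was not detectable at this depth, since both groups were at or under 3 counts per library.

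Ccl20 followed the same order of conditions at a lower level. Its counts were 1, 0, and 0 in control, 1, 3, and 0 in IL-4/13, 75, 103, and 108 in Inf, and 42, 27, and 31 in IL-4/13 + Inf. The level was 4.98, 5.02, and 6.55 CPM in the Inf libraries and 2.08, 1.52, and 2.09 CPM in the IL-4/13 + Inf libraries. All 3 libraries with both mixtures were below all 3 with Inf alone, which held for 16.8% of tested genes.

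Ccl20 was at least 30.8-fold higher in Inf than in control (adjusted p = 3.9e-13, edgeR) and at least 10.6-fold higher in IL-4/13 + Inf (adjusted p = 3.7e-09). Like Ccl3, it passed the filter only through the libraries with Inf, so these p-values are not independent support for a rise. With IL-4/13 added to Inf, the level was 0.345 of that with Inf alone, or −1.54 ± 0.25 in log2 terms (SE, adjusted p = 3.4e-05, edgeR). Mean CPM was 5.52 ± 0.89 with Inf and 1.90 ± 0.33 with both (SD, n = 3). Only 34 of the 14810 tested genes had a lower log2 fold change in this comparison. Left-out single libraries moved this to between −1.62 and −1.39, and the call held. IL-4/13 alone left Ccl20 at 3 or fewer counts in every library, so no fold is given for it.

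Sequence upstream of the gene start is shown for the 3 of these genes that rose with Inf and have a promoter window in RefSeq (GRCm38.p6), each as the 100 bases before the start, 5′ to 3′ on the gene's strand. Capitals mark matches to the NF-κB consensus and to the AP-1 letters TGANTCA.
Ccl3, chr11:83649379-83649478, minus strand: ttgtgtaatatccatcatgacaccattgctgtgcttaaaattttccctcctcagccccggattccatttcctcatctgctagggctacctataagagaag
Ccl9, chr11:83578637-83578736, minus strand: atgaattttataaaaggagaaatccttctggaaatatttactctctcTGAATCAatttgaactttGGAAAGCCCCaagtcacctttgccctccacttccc
Ccl20, chr1:83116666-83116765, plus strand: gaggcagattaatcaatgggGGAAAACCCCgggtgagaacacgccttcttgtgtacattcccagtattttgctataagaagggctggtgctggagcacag

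Windows of 250 bases before to 50 bases after the start were searched on both strands for NF-κB, AP-1, STAT (TTCNNNGAA), STAT6, and IRF consensus letters. Ccl9 held an NF-κB match from −35 to −26, read on the strand opposite to the gene, and an AP-1 match from −53 to −47. Ccl20 held an NF-κB match from −80 to −71, also on the opposite strand. The Ccl3 window and both Ccl25 windows held none of the 5 motifs. Of all 32851 windows, 8.46% held an NF-κB match and 7.81% an AP-1 match, 8.30% held STAT letters, 6.95% STAT6 letters, and 3.44% IRF letters. No 2 matches overlapped. These matches describe letters in a window and are not binding sites.

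Ccl5 was present in every library. The control libraries had 13.2, 16.6, and 15.8 CPM, and those with IL-4/13 alone had 21.0, 18.9, and 20.8 CPM. The Inf libraries had 208, 181, and 206 CPM, and those with both mixtures had 180, 172, and 175 CPM. The highest control library was below the lowest IL-4/13 library, and the highest library with both mixtures was just below the lowest Inf library. In such terms, the groups did not overlap for 13.4% of tested genes that were higher with IL-4/13 than in control, 23.5% that were higher with Inf than in control, and 16.8% that were lower and 18.3% that were higher with both mixtures than with Inf.

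Inf raised Ccl5 13.0-fold over control, by 3.71 ± 0.072 on the log2 scale (SE, adjusted p = 7.6e-27, edgeR). IL-4/13 alone raised it 1.34-fold (log2 0.42 ± 0.085, adjusted p = 0.0012). On addition of IL-4/13 to Inf, the level went from 198 ± 14.7 to 176 ± 4.15 CPM (SD, n = 3). This difference of −0.17 ± 0.057 on the log2 scale had an adjusted p of 0.028 and was under the fold change threshold, so it was not called.

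The response of Ccl5 to IL-4/13 differed with and without Inf. The log2 response was 0.59 ± 0.10 lower with Inf (interaction term −0.59, adjusted p = 4.7e-04, edgeR), and it was −0.66 to −0.49 with each library left out. On the linear scale, IL-4/13 added 5.04 CPM without Inf and changed the level by −22.3 CPM with Inf, a difference of −27.4 CPM, for which no test of equal responses is given. Ccl5 was the 1 gene of the 5 called in the interaction.

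For the other genes, this difference of CPM responses is also given without a test. For Ccl3 and Ccl20, which lay at or under 3 counts per library without Inf, it was −4.92 and −3.68 CPM and is nearly the same as the change on adding IL-4/13 to Inf, of −4.86 and −3.62 CPM. For Ccl9 it was −5.64 CPM, or −3.48 CPM without Inf replicate 3, and for Ccl25 0.52 CPM, with a sign that changed when single libraries were left out. The log2 interaction terms of Ccl3 and Ccl20 rest on groups at or near 0 counts and are not given.

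Ccl9 was the 1 gene of the 5 called up by IL-4/13 both with and without Inf. The control libraries had 14.6, 14.4, and 18.8 CPM, and those with IL-4/13 alone had 28.5, 30.6, and 28.0 CPM. Those with Inf alone had 22.6, 22.4, and 28.6 CPM, and those with both had 35.9, 31.3, and 29.0 CPM. Control lay below all other conditions, whereas the IL-4/13 libraries overlapped with those of Inf and of IL-4/13 + Inf. Of all tested genes, 13.4% lay wholly higher with IL-4/13 than in control, and 23.5% with Inf. The IL-4/13 + Inf libraries were all above those of Inf, which held for 18.3% of tested genes, the closest pair being 29.0 and 28.6 CPM.

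IL-4/13 raised Ccl9 1.83-fold over control (log2 0.87 ± 0.11, adjusted p = 5.5e-06, edgeR), and Inf raised it 1.54-fold (log2 0.62 ± 0.11, adjusted p = 6.7e-05). With both, it was 2.02-fold higher than in control (log2 1.01 ± 0.11, adjusted p = 3.4e-08). It was 1.31-fold higher with both than with Inf (log2 0.39 ± 0.10, adjusted p = 0.0070), and without IL-4/13 + Inf replicate 1 this was log2 0.30 with an adjusted p of 0.064, which is not a call. The combined condition was 0.15 ± 0.10 above IL-4/13 alone on the log2 scale (adjusted p = 0.31). The interaction term was −0.48 ± 0.15 (adjusted p = 0.095). It was called when control replicate 3 (−0.61, adjusted p = 0.017) or IL-4/13 + Inf replicate 1 (−0.57, adjusted p = 0.042) was left out, and when low counts were not filtered (−0.47, adjusted p = 0.010). Of the 50-base words in the longest Ccl9 transcript, 1.995% also occur in transcripts of other genes, and none do for the other 4.

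Ccl25 was detected at a similar level in all conditions. The control libraries had 10.2, 10.4, and 12.2 CPM, and those with IL-4/13 alone had 11.0, 11.1, and 13.3 CPM. Inf gave 9.44, 12.9, and 11.9 CPM, and both mixtures gave 15.1, 11.6, and 11.7 CPM. The ranges of all 4 conditions overlapped. Its log2 fold changes against control were 0.10 ± 0.13 with IL-4/13, 0.07 ± 0.13 with Inf, and 0.23 ± 0.13 with both (SE, adjusted p = 0.73, 0.70, and 0.17, edgeR). The Ccl9 differences in the same comparisons were larger than these by several standard errors, whereas smaller differences of Ccl25 cannot be told from no change.

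The first exons of Ccl25 overlap those of Elavl1, an RNA-binding protein gene on the opposite strand, by 204 bases. Elavl1 was at 134 ± 2.65 CPM in control and 116 ± 9.72 CPM in Inf (SD, n = 3). The libraries were stranded, but the strand setting of the read counting is not given in the sources used here, so Ccl25 reads in the overlap are uncertain. Of the 10 annotated Ccl25 transcripts, 4 are coding, and 7 start within 31 bases of the gene start, at the overlap. The level per length depends on the transcript: Ccl25 was at 1.47 ± 0.15 CPM per kb in control over all exons (7445 bases) and at 10.3 ± 1.03 CPM per kb over the longest coding transcript (1058 bases), a length chosen after seeing the data.

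**Figure D2:**
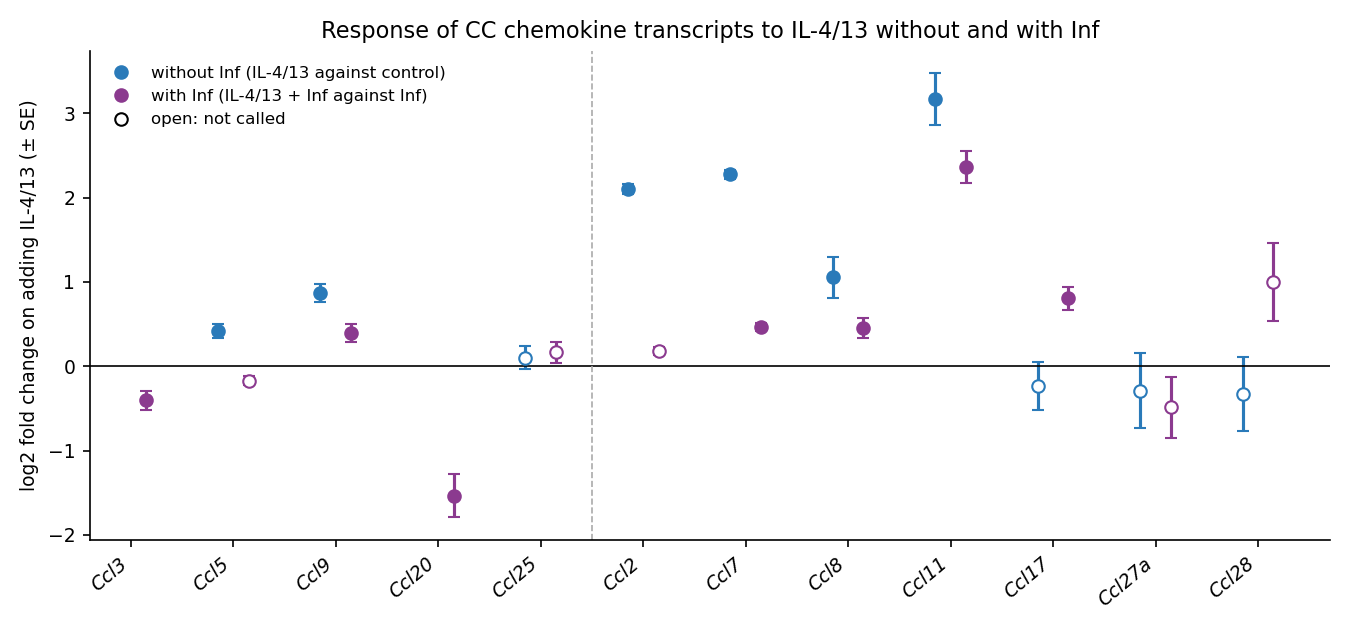
Log2 fold change on adding IL-4/13, with its SE, without Inf (blue) and with Inf (purple), for Ccl3, Ccl5, Ccl9, Ccl20, and Ccl25 left of the dashed line and for the 7 other tested CC chemokines right of it, filled where called. Ccl3 and Ccl20 have no blue point because both groups had at most 3 counts per library. With Inf, Ccl20 (−1.54) and Ccl3 (−0.40) are the filled points below 0, and Ccl9 (0.39) is above it.

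Levels between genes were compared per kb of exon. Ccl5 was at 15.8 ± 1.86 CPM per kb in control and 206 ± 15.3 CPM per kb in Inf, after Ccl2 and Ccl7 in all 4 conditions. In Inf, Ccl3 took place 5 of the 26 CC chemokines, at 25.9 ± 1.91 CPM per kb, close to Ccl8, a ligand of CCR8 in mice, at 26.3 ± 1.12. With Ccl25 taken over all its exons, Ccl9 went from place 4 in control, at 5.23 ± 0.82 CPM per kb, to place 8 with both mixtures, at 10.5 ± 1.16, although its own level was higher there. Ccl20 reached 3.88 ± 0.63 CPM per kb in Inf.

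**Figure D3:**
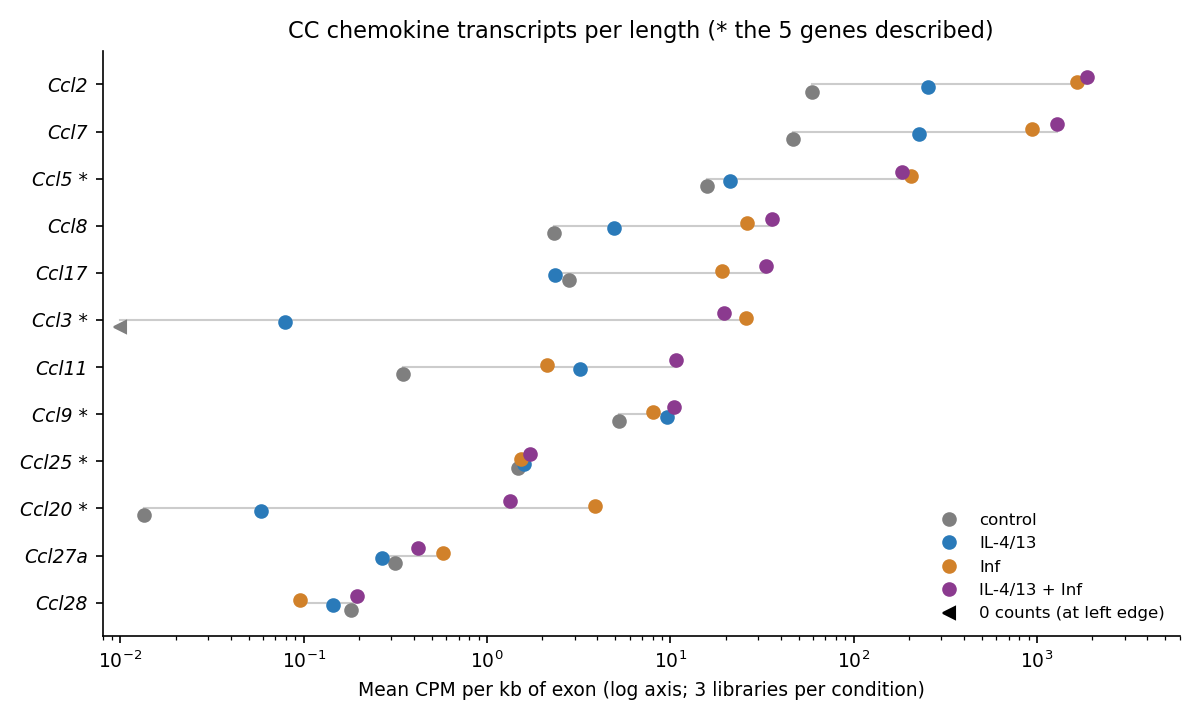
Mean CPM per kb of exon (log axis) of the 12 tested CC chemokines in each condition, ordered by the level in IL-4/13 + Inf, with asterisks on the 5 genes described here and a left-pointing triangle for Ccl3 in control, which had 0 counts. Ccl3 and Ccl20 span the widest range among the marked genes, Ccl5 lies below Ccl2 and Ccl7 at the top, and the 4 Ccl25 points nearly coincide.

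Among 17 other CC chemokines listed, 7 were tested. IL-4/13 alone raised 4 of them, against 2.78% of all tested genes, and IL-4/13 added to Inf raised 4, against 7.55%. None was called down in either comparison. The median log2 fold change of the 7 was 1.05 for IL-4/13 alone and 0.46 for IL-4/13 added to Inf, against −0.0014 and −0.0098 over all tested genes. Ccl2, the main monocyte attractant of the family, had a log2 interaction of −1.91 ± 0.073 and Ccl7 of −1.81 ± 0.072 (adjusted p = 2.8e-15 and 7.5e-17, edgeR), so these also responded less to IL-4/13 in the presence of Inf, in log2 terms, as Ccl5 did. Unlike Ccl5, they were higher with both mixtures than with Inf, by 0.19 ± 0.048 for Ccl2, which is under the threshold, and by 0.46 ± 0.046 for Ccl7. On adding IL-4/13, mean Ccl2 went from 67.1 to 288 CPM without Inf and from 1871 to 2128 CPM with Inf. Mean Ccl7 went from 37.5 to 182 CPM and from 749 to 1031 CPM. In CPM, the mean added amount was thus not smaller with Inf for either gene, which was not tested.

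Receptors of these ligands were barely detected. Ccr1, Ccr3, Ccr6, Ccr9, Ackr1, Ackr2, Ackr4, and Ccrl2 did not pass the filter. Ccr3, Ccr6, and Ackr1 had 0 counts in every library, and a count of 0 allows up to 0.179 CPM in the average control library. Ccrl2, a receptor-like protein without known signaling, was the highest of these, with 6 to 29 counts in the IL-4/13 + Inf libraries and 3 to 7 in control. The 5 receptors of other CC chemokines listed, Ccr2, Ccr4, Ccr7, Ccr8, and Ccr10, also did not pass the filter.

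Genes that control chemokine transcription and mRNA decay rose with Inf, 16 of 20, against 16.3% of all tested genes, and none fell. The median log2 fold change was 0.93, against 0.0073 over all tested genes. With IL-4/13 added to Inf, 3 were called down and 2 up, against 7.00% and 7.55% of all tested genes, and the median log2 fold change of the 20 was 0.054, against −0.0098. The 3 were Nfkbiz, a nuclear IκB protein that IL-17 induces (−0.43 ± 0.071, adjusted p = 1.9e-04, edgeR), Tnfaip3, the A20 inhibitor of NF-κB signaling (−0.42 ± 0.070, adjusted p = 3.3e-05), and Bcl3, a nuclear IκB protein (−0.34 ± 0.067, adjusted p = 2.7e-04). The 2 that rose were Nfkb1, which encodes the p105 precursor of p50 (0.88 ± 0.041, adjusted p = 3.1e-16), and Rel (0.33 ± 0.12, adjusted p = 0.048). Zc3h12a, which encodes the ribonuclease Regnase-1, rose by 4.22 ± 0.072 with Inf (adjusted p = 1.5e-28), and its log2 fold change on adding IL-4/13 to Inf was 0.10 ± 0.054 (adjusted p = 0.21). Zfp36, which encodes tristetraprolin, a protein that binds AU-rich elements, rose by 0.37 ± 0.085 with Inf (adjusted p = 7.0e-04).

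AU-rich elements in the 3′ UTR are known sites of mRNA decay control, and the pentamer ATTTA was counted in the longest coding transcript of each gene, a search chosen after the values were seen. Ccl3 held 5 in 409 bases (12.2 per kb) and Ccl20 held 9 in 1050 bases (8.57 per kb). Of 20952 mouse 3′ UTRs, 0.678% were at least as dense as that of Ccl3 and 1.87% as that of Ccl20. By number rather than density, 21.3% of UTRs held at least as many pentamers as Ccl3 or Ccl9, and 8.43% at least as many as Ccl20. Ccl9 held 5 in 2465 bases (2.03 per kb), a density that 35.1% of UTRs reached, and Ccl5 and Ccl25 held none, as did 35.3% of UTRs. The 2 genes that were called down on adding IL-4/13 to Inf were thus those with the densest ATTTA among the 5. A longer AU-rich motif, a nonamer, was also counted in these UTRs, in a single exact spelling. That spelling had 0 matches in each of the 5 genes, Ccl3 and Ccl20 included. Variant spellings were not searched, so these counts do not say whether longer AU-rich motifs differ between the 5 genes. Whether AU-rich elements had a part in the fall of Ccl3 and Ccl20 was not tested. A 30-base stretch of each UTR with 2 pentamers in capitals, from GENCODE M21 (GRCm38), is shown to compare their spacing.
Ccl3, UTR bases 139 to 168: gactcttcacttgaaattttATTTAATTTA
Ccl9, UTR bases 2110 to 2139: tgagtccATTTAtacagtggatctcATTTA
Ccl20, UTR bases 939 to 968: tgtaaagatATTTAatgttctgtttATTTA

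The IL-4/13 response was present in both settings. Of 5 tested genes of a list of 8, Il13ra2, Cish, and Socs1 were called up by IL-4/13 without Inf, at log2 4.12 ± 0.22, 2.16 ± 0.17, and 1.09 ± 0.088, and with Inf, at 1.96 ± 0.060, 2.43 ± 0.13, and 0.89 ± 0.081 (SE). Of all tested genes, 2.78% and 7.55% were called up in these comparisons. Il4ra and Il13ra1 were also tested and were called in neither. With Inf they were lower, at −0.25 ± 0.056 and −0.23 ± 0.051, under the threshold (adjusted p = 0.0012 and 0.0011, edgeR). Inf alone raised all 5 tested genes. Arg1, Retnla, and Chil3 had at most 2 counts in any library and were not tested. Il13ra2 encodes a decoy receptor for IL-13, and Cish and Socs1 encode inhibitors of cytokine signaling.

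The genes whose pattern over the 12 libraries was most like that of each chemokine were found by the root mean square difference of centered log2 CPM (prior count 2) among the 14810 tested genes. For Ccl3 they were Csf3, the granulocyte growth factor G-CSF (difference 0.27), and the neutrophil-attracting chemokines Cxcl5 (0.30) and Cxcl1 (0.35). These did not all fall on adding IL-4/13 to Inf, as Ccl3 did. Mean Csf3 went from 15.1 to 16.5 CPM, Cxcl1 from 1315 to 1439 CPM, and Cxcl5 from 3991 to 3553 CPM. For Ccl5 they were Fas, a death receptor (0.14), Pdgfrl (0.18), and the gelatinase Mmp9 (0.19). Between Inf and both mixtures, mean Fas was 124 and 125 CPM, Pdgfrl 818 and 907 CPM, and Mmp9 119 and 104 CPM. For Ccl9 they were Fgd6 (0.14), Lox, the collagen crosslinking enzyme lysyl oxidase (0.14), and St3gal1, a sialyltransferase (0.17).

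For Ccl20 the nearest were Camp, the antimicrobial peptide cathelicidin (0.52), Ntng2 (0.54), and Slpi, a secreted protease inhibitor (0.58). Camp was at 2.99 CPM with Inf and at 1.09 CPM with both mixtures. Camp was also listed as a neutrophil marker, and of the other neutrophil markers Ly6g, Cxcr2, and Elane had at most 1 count in any library and Mpo and Ngp had 0. For Ccl25 the nearest were Snhg12 (0.093), Rbm48 (0.099), and Snx16 (0.11), genes that changed little over the 12 libraries. Among the 5 chemokines themselves, the closest pair by this measure was Ccl9 and Ccl25 (0.35) and the next Ccl5 and Ccl20 (0.79). The profiles were not scaled, so the measure also reflects how much each gene changed. Ccl3 and Ccl20, which had the same order of conditions, differed by 1.41.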

How the data were processed

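RNA from 12 libraries of 3T3-L1 cells, 3 in each of 4 conditions, was sequenced. The values deposited by the authors are raw read counts per gene, not normalized. The submitters' processing notes name STAR, featureCounts, and GRCm39, and versions, annotation, and strand setting are not given in the sources used here. Total counts were 13446005 to 20775769 per library, which limits precision for genes with few counts, and bounds against 3 counts cover counting error only. Counts were filtered with filterByExpr (minimum count 10, minimum total count 15), scaled with TMM factors, and tested with the quasi-likelihood test of edgeR 4.0.16 (R 4.3.3) in one fit of all 12 libraries. Although the study's methods name DESeq2, DESeq2 1.42.0 was an alternative here. The SE is the log2 fold change divided by the square root of the F statistic. The models were tested on simulated counts. Replicate pairs of every condition differed by more than sampling noise (chi-square per degree of freedom 2.27 to 8.58). The members and gene lists were chosen with earlier results of these data known. The rule for named genes was the 5 chemokines, the fixed lists, and the 3 genes nearest to each chemokine. The tests were repeated with DESeq2, with its size factors in edgeR, with scaling by library size, without the filter or with a mean of at least 50 counts, on the compared groups alone, with a replicate block, with each library left out, and with log2 thresholds of 0 and 1 or an adjusted p of 0.01. Annotation came from GENCODE M21 (GRCm38) and promoters from RefSeq (GRCm38.p6), in which 4 of the 5 genes had a window. One listed receptor gene is not reported here.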

Additional observations from a re-analysis of the deposited data

Results flagged for a closer look

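The response of Ccl5 to IL-4/13 differed between cells with and without Inf. The log2 response was 0.42 without Inf and −0.17 with Inf, a difference of −0.59 (adjusted p = 4.7e-04, edgeR interaction term). In CPM, the response was 5.04 without Inf and −22.3 with Inf, a difference of −27.4, and on this scale the difference was not tested. All IL-4/13 libraries were above all control libraries, which held for 13.4% of tested genes. All IL-4/13 + Inf libraries were below all Inf libraries, which held for 16.8%, and the closest were at 180 and 181 CPM. The fall with Inf was under the fold change threshold and not called. Its adjusted p was up to 0.13 with each library left out (edgeR).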

How the results depend on the processing

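At a log2 threshold of 1, IL-4/13 alone raised 0 of the 5 genes, Inf raised 3 (not Ccl9), IL-4/13 added to Inf raised 0 and lowered 1 (Ccl20), and the interaction called 0, because the other changes lie under that threshold. At a threshold of 0, Ccl5 was also called down on adding IL-4/13 to Inf (−0.17). With a mean of at least 50 counts, Ccl20 was not tested, which left 3 called up by Inf and 3 by both mixtures against control, 2 on adding Inf to IL-4/13, and 1 called down on adding IL-4/13 to Inf. Without the filter, the interaction called 2 (Ccl5 and Ccl9), and the cause was not tested. With each library left out, the number called up on adding IL-4/13 to Inf was 0 to 1 (0 without IL-4/13 + Inf replicate 1) and the number called down in the interaction was 1 to 2.

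With each library left out, the log2 fold change of Ccl25, called in no setting, was −0.026 to 0.18 for Inf against control, −0.0080 to 0.22 for IL-4/13 + Inf against IL-4/13, and −0.084 to 0.16 for the interaction. The difference of CPM responses was −5.68 to −4.22 for Ccl3, −35.7 to −22.4 for Ccl5, −3.95 to −3.17 for Ccl20, and −0.63 to 1.26 for Ccl25. For Ccl9 it was −7.55 (without IL-4/13 + Inf replicate 1) to −3.48 (without Inf replicate 3). The planned exact permutation of the IL-4/13 labels within each level of Inf asks whether IL-4/13 had no effect at either level, and not whether the responses are equal, so nothing is read from its p on the difference. With all libraries, p was 0.005 for Ccl5, 0.02 for Ccl3, 0.035 for Ccl20, 0.43 for Ccl9, and 0.76 for Ccl25. That of Ccl5 was 0.065 without IL-4/13 + Inf replicate 1, 0.08 without replicate 2, and 0.075 without replicate 3, where 200 relabellings are possible, and 0.005 without any other library. Those of Ccl3 were 0.005 (without IL-4/13 replicate 2) to 0.02, and those of Ccl20 were 0.01 (without IL-4/13 replicate 3) to 0.05 (without IL-4/13 replicate 2), all unadjusted over the 5 tests.

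The replicate numbers are shared between conditions. Deviations of same-numbered libraries from their group means had correlations of −0.15 to 0.054 in 18 pairs, against −0.11 to 0.16 in 36 pairs of different number. With 3 libraries per condition, this cannot show whether same-numbered libraries shared a culture or handling. No library correlated best with its own number. With the replicate block, the numbers of members called were 2, 4, and 4 up against control for IL-4/13, Inf, and both, 1 up and 2 down on adding IL-4/13 to Inf, 3 up on adding Inf to IL-4/13, and 1 down in the interaction. Few counts limit Ccl20, and without Inf also Ccl3. DESeq2 gave no adjusted p for the Ccl20 interaction.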
